A study of Mus musculus with 9 samples.

Results

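The genes of the Sp100 and Sp110 cluster on mouse chromosome 1 were examined in embryonic stem cells (ESCs) depleted of Dppa2 or Dppa4. The cluster was listed as 6 genes, selected on the fall of Sp110 and its neighbours from control to knockdown cells in these same log2 values, of which 5 (Sp110, Sp140, Sp100, A530032D15Rik, and A530040E14Rik) were analysed among 25965 genes; Csprs was not analysed here. The question asked of these data was whether the whole cluster fell with Sp110. RNA came from E14 ESCs, a feeder-independent mouse line of 129/Ola background, grown in serum and LIF without feeders. The paper describes its siRNA knockdowns in ESCs that carry fluorescent reporters (MERVL::tdTomato and Zscan4c::eGFP). Cells received control, Dppa2, or Dppa4 siRNA at the start and again at 48 h, and were collected at 96 h (4 d). There were 3 libraries of polyadenylated RNA per siRNA, labelled rep3A, rep3B, and rep3C and called A, B, and C here. The authors describe their siRNA libraries as 3 biological replicates. The labels do not say whether the libraries of an siRNA came from separate cultures.

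Sp100, Sp110, and Sp140 encode nuclear proteins of the speckled protein family. The family is known for a SAND domain, which binds DNA or chromatin, and for expression in leukocytes and induction by interferon. Sp100 is a constituent of PML nuclear bodies, and Sp140 reads chromatin through a PHD finger and a bromodomain. Sp110 has been studied in the mouse for a possible part in resistance of macrophages to tuberculosis. Dppa2 and Dppa4 are small chromatin-bound proteins of early embryos and ESCs, known as a heterodimer that is needed for transcription of genes of the 2-cell embryo in rare cells of an ESC culture.

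The 5 genes span 626.9 kb (GRCm38, chr1:85083069-85709998). Sp110 (ENSMUSG00000070034, chr1:85576899-85598817, minus strand) and Sp140 (ENSMUSG00000070031, chr1:85600378-85645037, plus strand) are transcribed away from each other, with 1561 bases between their annotated starts. Sp100 (ENSMUSG00000026222, chr1:85649988-85709998, plus strand) begins 4951 bases after the end of Sp140. A530032D15Rik (ENSMUSG00000089844, chr1:85083069-85109853, minus strand, protein coding) and A530040E14Rik (ENSMUSG00000072109, chr1:85105946-85114035, plus strand, an antisense transcript) lie apart from them, with 462864 bases between A530040E14Rik and Sp110. These 2 genes overlap on opposite strands by 3908 bases but share no exonic base. Another 8 genes of the table lie in or across the span, the longest of which, C130026I21Rik (ENSMUSG00000052477, chr1:84992690-85270566, minus strand), contains A530032D15Rik on the same strand without sharing an exon with it.

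The cluster holds repeated sequence. The stretch leading up to the annotated start of A530032D15Rik was nearly the same as that of C130026I21Rik, and both nearly matched a stretch at the beginning of Sp140 in GENCODE. The stretches are shown as an example of the repeated sequence, and the sharing within annotated transcripts, which bears on the reads, is given further below. All are taken from RefSeq promoter windows (build GRCm38.p6, 250 bases before to 50 after a gene's start) and written 5′ to 3′ on the strand of the gene, with capitals at the position where the 3 copies differ. The Sp140 copy (chr1:85600489-85600664, plus strand) lies before the RefSeq start of Sp140 but inside its GENCODE gene, where 111 of its bases are coding, and the A530032D15Rik copy (chr1:85109863-85110038, minus strand) and the C130026I21Rik copy (chr1:85270567-85270742, minus strand) lie outside the exons of those genes.
Sp140: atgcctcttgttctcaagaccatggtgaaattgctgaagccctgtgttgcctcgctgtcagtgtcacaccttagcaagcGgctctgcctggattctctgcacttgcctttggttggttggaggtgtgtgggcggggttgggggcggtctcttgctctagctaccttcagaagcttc
A530032D15Rik: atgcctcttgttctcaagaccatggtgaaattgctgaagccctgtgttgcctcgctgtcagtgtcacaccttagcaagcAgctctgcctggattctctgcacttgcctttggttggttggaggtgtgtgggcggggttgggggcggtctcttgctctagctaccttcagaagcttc
C130026I21Rik: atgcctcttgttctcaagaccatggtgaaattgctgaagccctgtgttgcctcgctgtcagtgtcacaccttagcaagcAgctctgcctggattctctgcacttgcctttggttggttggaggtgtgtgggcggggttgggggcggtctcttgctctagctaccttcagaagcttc
The 3 copies of 176 bases differed at 1 position. Over the whole windows of 300 bases, the local alignment of A530032D15Rik with Sp140 covered 271 positions with 99.6% identical, and that of A530032D15Rik with C130026I21Rik covered 291 positions with 95.9% identical.

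The windows of Sp110, A530040E14Rik, and Sp100 shared no such stretch. The sequences before the annotated starts of Sp110 (chr1:85598818-85599060, minus strand), A530040E14Rik (chr1:85105843-85105945, plus strand), and Sp100 (chr1:85649738-85649987, plus strand) are given for comparison, and no base is in capitals because no searched motif was present.
Sp110: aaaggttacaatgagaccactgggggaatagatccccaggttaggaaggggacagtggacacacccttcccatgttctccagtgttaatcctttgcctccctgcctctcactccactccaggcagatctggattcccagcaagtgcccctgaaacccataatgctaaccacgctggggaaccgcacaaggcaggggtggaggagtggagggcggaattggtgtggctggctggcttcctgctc
A530040E14Rik: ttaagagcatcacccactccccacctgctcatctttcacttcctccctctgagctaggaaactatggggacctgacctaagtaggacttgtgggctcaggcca
Sp100: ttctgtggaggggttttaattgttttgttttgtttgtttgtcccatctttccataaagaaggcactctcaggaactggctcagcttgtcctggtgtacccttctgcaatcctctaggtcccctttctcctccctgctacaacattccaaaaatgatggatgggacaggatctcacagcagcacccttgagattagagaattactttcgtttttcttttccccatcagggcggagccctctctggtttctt
The longest run shared by the windows of Sp110 and Sp100 was 11 bases, and that of A530040E14Rik and Sp110 was 8 bases. The run of 11 bases lay in a local alignment of 21 positions with 90.5% identical. In Sp110 it falls after the printed stretch. Windows of the members and C130026I21Rik held 1 to 7 CG dinucleotides, against a median of 7 over 32851 promoter windows. The interferon-stimulated response element core (GAAANNGAAA), the gamma-activated site (TTCNNNGAA), and the TATA box (TATAAA) were searched on both strands. RefSeq lists a second start of Sp110 inside Sp140, whose window was searched too. None of these letters occurred in a window of a member, where 3.4%, 8.3%, and 13.6% of all windows held them. For so few windows, finding none is near the background. Only exact letters and spacing were searched, so near matches were not counted.

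The siRNAs lowered their targets, and the cells carried the markers of ESCs. Dppa2 fell from 6.94 to 7.26 in control siRNA libraries to 3.36 to 3.86 in Dppa2 siRNA libraries on the normalized log2 scale (difference -3.49, SE 0.14, limma adjusted p = 2.1e-05). Dppa4 fell from 7.02 to 7.11 to 6.09 to 6.16 in Dppa4 siRNA libraries (difference -0.93, SE 0.08, limma adjusted p = 0.000281). The 7 ESC markers summed to between 3610 and 4870 RPM (reads per Mread on genes) in the 9 libraries, and 0 of 7 passed the test with either siRNA. For 7 genes this is near the background. Of all tested genes, 1.53% and 1.58% passed as lower with Dppa2 and Dppa4 siRNA, and 0.377% and 0.37% as higher. Of 8 markers of blood and immune cells, Lyz2 had no read in any library and Ptprc had none in 8 of 9. The estimated depth was 16.8 to 39.6 Mreads on genes per library. Reads per gene were inferred from the order of the deposited values, and their intervals and floors hold for counting error alone, since copies of 1 molecule could not be removed by molecular identifiers.

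Sp110 was the most strongly read member in control cells and was nearly lost in both knockdowns. Its normalized log2 value was 2.12, 2.03, and 2.97 in control libraries A, B, and C. It was -3.59, -4.48, and -2.95 in Dppa2 siRNA libraries, and -4.49, -3.80, and -4.49 in Dppa4 siRNA libraries. Of the 6 treated libraries, 3 sat at the lowest value of the library, which stands for no read. These values rest on 144, 227, and 200 reads in the control libraries, 2, 0, and 2 reads with Dppa2 siRNA, and 0, 2, and 0 reads with Dppa4 siRNA.

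Against control cells, the mean log2 value of Sp110 differed by -6.05 with Dppa2 siRNA and by -6.63 with Dppa4 siRNA. The group SDs were 0.52 in control, 0.77 in Dppa2 siRNA, and 0.39 in Dppa4 siRNA cells (n = 3 libraries each). Corrected for depth, the reads left with Dppa2 siRNA were 0.936% of control (exact 95% interval 0.254% to 2.41%), and those left with Dppa4 siRNA were 0.366% (0.0442% to 1.33%). A log2 difference between so few reads and many depends on the value given to no read, and with 1 added to the linear value it was -2.52 and -2.56. In these bulk samples, fewer cells that express Sp110 and less Sp110 RNA per cell cannot be told apart.

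A530040E14Rik, the antisense transcript beside A530032D15Rik, went from a low level to no read. It had 16, 40, and 54 reads in control libraries A, B, and C, at log2 values of -1.09, -0.56, and 1.08. No read was found in any of the 6 knockdown libraries. At the control level, 82.3 reads would have been expected over the 3 Dppa2 siRNA libraries and 105.3 over the 3 Dppa4 siRNA libraries. With a floor of 3 reads over a group, A530040E14Rik was at least 27.4-fold lower with Dppa2 siRNA and at least 35.1-fold lower with Dppa4 siRNA.

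Sp140 and A530032D15Rik were read less often still. Sp140 had 5, 22, and 14 reads in control libraries A, B, and C, none with Dppa2 siRNA, and 0, 0, and 2 with Dppa4 siRNA. Its log2 values were -3.04 to -0.94 in control cells, and a single treated library, Dppa4 siRNA C at -3.40, lay above the lowest value. Sp140 was at least 10.2-fold lower with Dppa2 siRNA, and 5.1% of its control reads were left with Dppa4 siRNA (exact 95% interval 0.597% to 19.6%). A530032D15Rik had 5, 0, and 2 reads in the control libraries and none in the others. Control library B had no read of it either, so the groups overlapped, and at the control level only 5.2 and 6.7 reads would have been expected with Dppa2 and Dppa4 siRNA.

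Sp100 had no read in any of the 9 libraries. A count of 0 allows up to 0.0353 RPM over the control libraries, 0.0472 over the Dppa2 siRNA libraries, and 0.0369 over the Dppa4 siRNA libraries. A fall of Sp100 was therefore not detectable at this depth. Of the 5 members, 4 had reads in control cells.

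**Figure D1:**
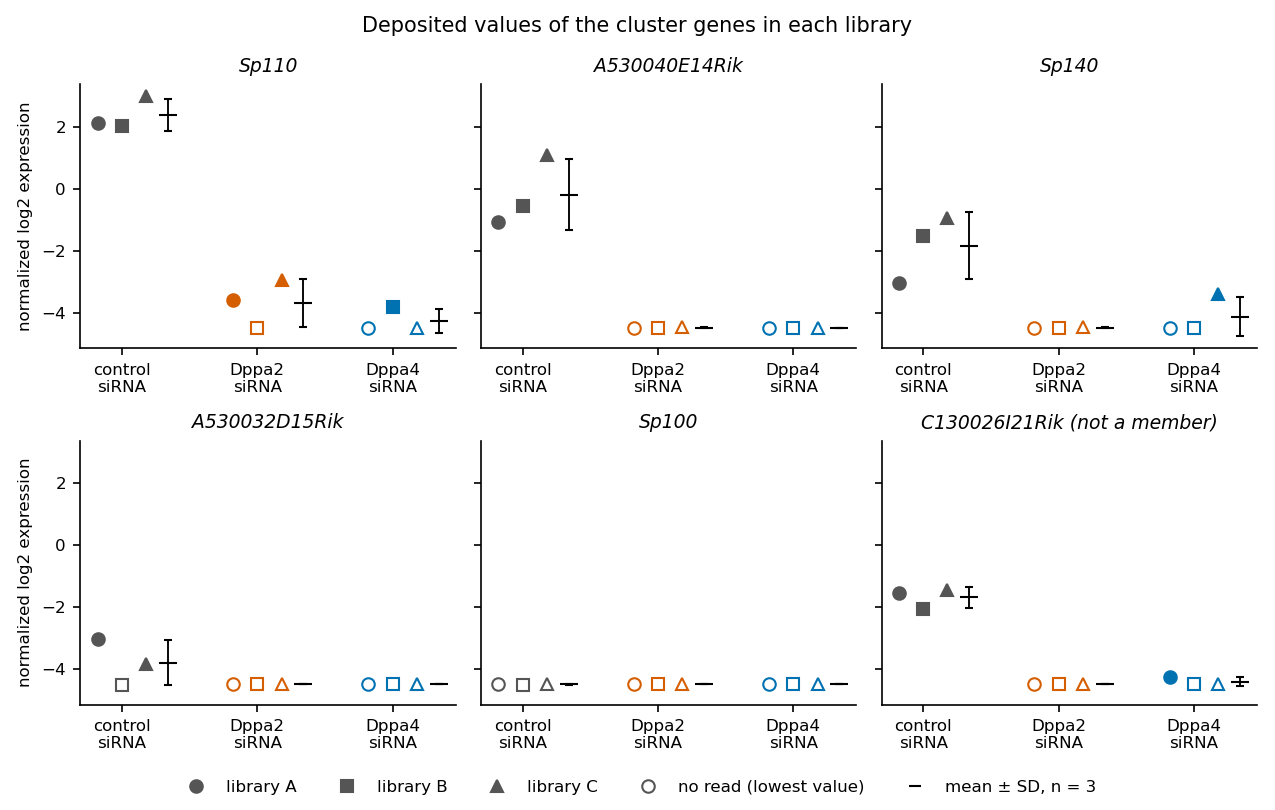
Normalized log2 expression (y axis) of the 5 analysed cluster genes and of C130026I21Rik in each library of control, Dppa2, and Dppa4 siRNA cells (x axis). Symbols are libraries A, B, and C, open symbols are libraries with no read, and bars are the mean and SD of 3 libraries. Sp110 stands between 2.03 and 2.97 in control cells and at or below -2.95 in the others, and Sp100 lies at the lowest value in all 9 libraries.

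Compared per length, the order of the members in control cells was Sp110 at 1.04 ± 0.314 RPM per kb of exon (SD, n = 3), A530040E14Rik at 0.608 ± 0.438, Sp140 at 0.143 ± 0.0722, A530032D15Rik at 0.0626 ± 0.0642, and Sp100 at 0. The ranges of Sp110 and A530040E14Rik overlapped, as did those of Sp140 and A530032D15Rik. Every control library had more A530040E14Rik than any had Sp140 on this scale. Among the control libraries, C had the highest RPM of Sp110 (9.52, against 5.93 in A and 5.73 in B), of A530040E14Rik (2.57, against 0.658 and 1.01), and of Sp140 (0.666, against 0.206 and 0.555). A530032D15Rik was highest in A instead, on 5 reads.

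Of the 5 members, 2 (Sp110 and A530040E14Rik) were above -2 on the log2 scale in 3 or more libraries and entered the test across 14601 genes. Both passed this filter through the control libraries alone. A gene was called where its adjusted p from limma was below 0.05 and its difference also stood apart from genes of similar expression (an intensity difference filter). Both were called lower with Dppa2 siRNA, where 1.53% of all tested genes were called lower, and both with Dppa4 siRNA, where 1.58% were. The members were chosen for this difference, so these counts describe them and test nothing. Counted from the most negative difference, Sp110 stood 26th of 14601 with Dppa2 siRNA and 15th with Dppa4 siRNA, and A530040E14Rik stood 69th and 64th.

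The knockdowns were then compared with each other, a contrast on which the members had not been chosen. The difference of Dppa4 from Dppa2 siRNA was -0.59 for Sp110 (95% interval -1.65 to 0.48, limma adjusted p = 0.891). Sp110 was not called, where 0.0205% of all genes tested were. With 0 to 2 reads per knockdown library, the interval leaves room for a difference of more than 1 on the log2 scale. A530040E14Rik had no read in any of the 6 knockdown libraries, so its value in this contrast is fixed near 0 and tests nothing. The depletion of RNA was unequal, with 17.5 RPM of Dppa2 left in Dppa2 siRNA cells (196 in control) and 98.3 of Dppa4 left in Dppa4 siRNA cells (187 in control). These values do not measure protein. By Western blot the paper reported a strong loss of each protein with its own siRNA. It also reported less Dppa2 protein with Dppa4 siRNA at unchanged Dppa2 mRNA, and a smaller loss of Dppa4 protein with Dppa2 siRNA.

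The genes around the members were examined next, to see whether the decrease extended along the chromosome. C130026I21Rik, the gene across the proximal part of the span, had 12, 16, and 10 reads in control libraries A, B, and C, none with Dppa2 siRNA, and 1, 0, and 0 with Dppa4 siRNA. Its control values were -1.54, -2.08, and -1.45, and its highest treated value was -4.25. It was at least 9.48-fold lower with Dppa2 siRNA, and 2.75% of its control reads were left with Dppa4 siRNA (exact 95% interval 0.0678% to 16.3%). It did not reach the filter for the test. Without the filter it was called lower with both siRNAs, at log2 differences of -2.79 and -2.72 (limma adjusted p = 0.000144 and 0.000169). The share of all genes called in that setting is not given here. Its knockdown values lay at or near the lowest value, with SDs of 0.01 and 0.14 against 0.34 in control cells. These p therefore rest in part on a spread set by that lowest value.

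The other 7 genes inside the span had few reads or none. Gm16092, a lincRNA between A530040E14Rik and Sp110, had 12, 2, and 0 reads in control libraries, 2, 4, and 1 with Dppa2 siRNA, and 5, 3, and 0 with Dppa4 siRNA. Its groups overlapped, and its reads with Dppa2 siRNA were 66.8% of control (exact 95% interval 22.8% to 177%). Gm16025, another lincRNA, had 6 reads in 1 control library, 2 reads with Dppa2 siRNA, and 3 with Dppa4 siRNA. Gm17017, antisense to the end of Sp140, had no read in control cells and 1 with each siRNA, and Gm10553, Gm16028, AC147806.1, and Gm16094 had none in any library.

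Outside the span, 18 of 28 genes within 1 Mb were tested. None was called lower or higher with either siRNA, and with 1.53% and 1.58% of all tested genes called lower, 0 of 18 is near the background. At an unadjusted limma p under 0.05 there were 2 of 18 with Dppa2 siRNA, against 2292 of all 14601 tested genes, and 3 of 18 with Dppa4 siRNA, against 2634 of 14601, so these shares are near the background too. With Dppa2 siRNA their median log2 difference was -0.03, against 0.02 over all tested genes, and with Dppa4 siRNA it was 0.11, against 0.03. The most negative of them was Dner, a Notch ligand of neurons named here after its values were seen, at -2.33 with Dppa4 siRNA (SE 0.72, limma adjusted p = 0.126) and -0.33 with Dppa2 siRNA. The nearest tested gene on the proximal side, Fbxo36, which encodes an F-box protein, differed by -0.05 (95% interval -0.69 to 0.60) and 0.05 (-0.60 to 0.69).

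The nearest tested gene on the distal side, A630001G21Rik (minus strand), lies 7085 bases beyond the end of Sp100. It had 11, 22, and 11 reads in control libraries, 26, 14, and 12 with Dppa2 siRNA, and 24, 30, and 16 with Dppa4 siRNA. On the normalized scale it was higher, by 1.07 with Dppa2 siRNA (SE 0.25, limma adjusted p = 0.0543) and by 1.24 with Dppa4 siRNA (SE 0.25, limma adjusted p = 0.0308). With Dppa4 siRNA it was not called because it did not pass the intensity difference filter, and with Dppa2 siRNA it was above the limma threshold as well. On RPM plus 1 read, the differences were 0.61 and 0.69 (limma adjusted p = 0.241 and 0.153). Its limma adjusted p with Dppa4 siRNA was 0.0353 to 0.161 when single libraries were left out, above 0.05 without control library A or B, Dppa2 siRNA library C, or any Dppa4 siRNA library.

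**Figure D2:**
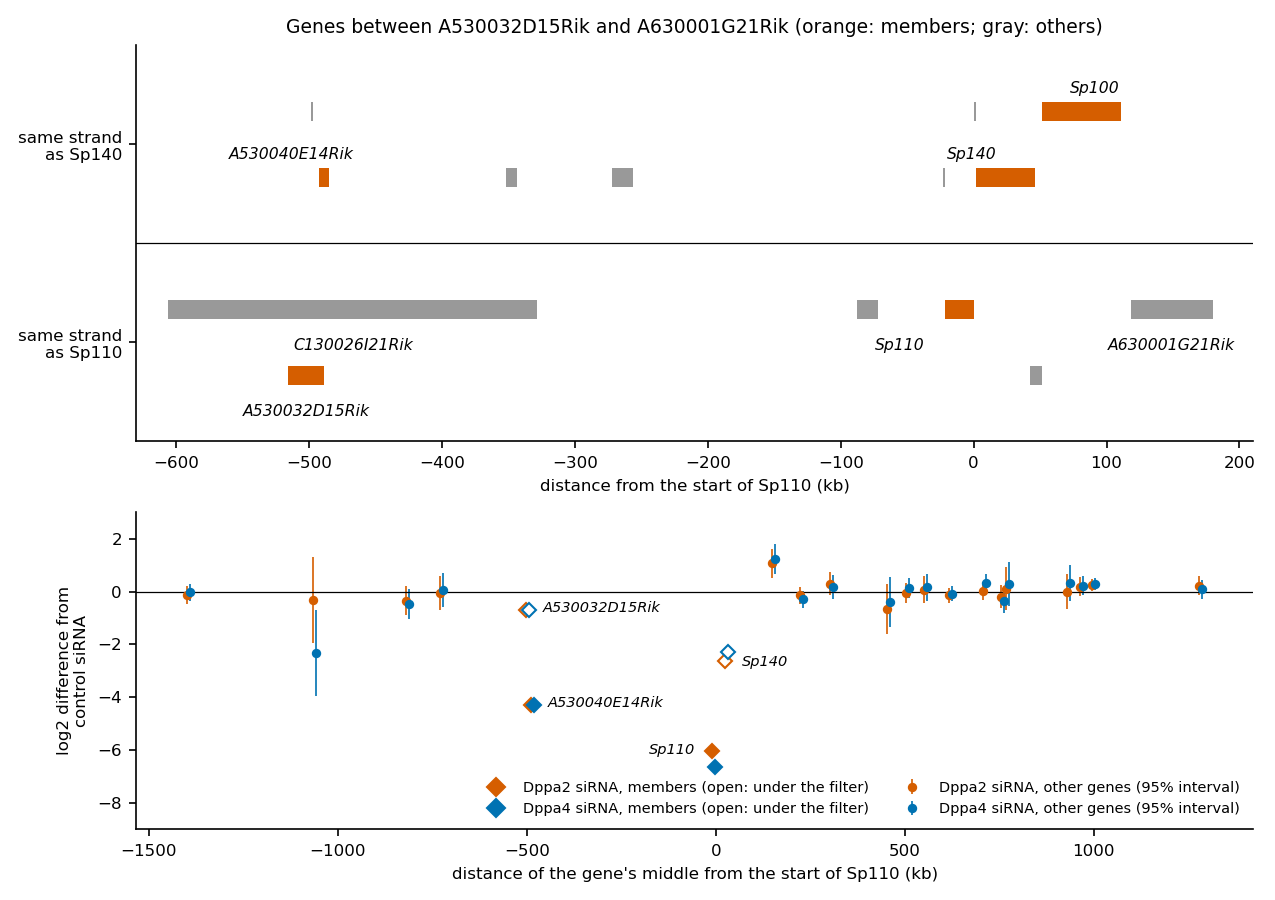
The upper panel maps the genes from A530032D15Rik to A630001G21Rik by strand and distance from the start of Sp110 in kb, members in orange. The lower panel gives the log2 difference from control siRNA (y axis) for members (diamonds, open where below the filter) and for the 18 other tested genes within 1 Mb (circles with 95% intervals). Sp110 lies at -6.05 and -6.63, and the other genes lie between -2.33 and 1.24.

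Reads in repeated sequence limit how far the members can be separated. Of all stretches of 50 bases in annotated transcripts, 36.0% of Sp110, 38.1% of Sp140, 40.1% of A530032D15Rik, 29.6% of A530040E14Rik, 25.1% of C130026I21Rik, and 5.9% of Sp100 also occurred in another gene. Sp110 shared most with Gm16026 (26.7%), a pseudogene of the same region, and A530032D15Rik shared 28.9% of its stretches with Sp140 and 21.8% with C130026I21Rik. How reads with several matches were counted is not given in the sources used here. The few reads of Sp140, A530032D15Rik, and C130026I21Rik are therefore uncertain as to their gene of origin. A530040E14Rik shared 19.7% of its stretches with Gm10552, an antisense gene of the same region. The part of A530040E14Rik reads in that copy, and of Sp110 reads in its Gm16026 copy, was not tested. Antisense pairs were counted by strand.

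Genes elsewhere that varied like Sp110 were found by Pearson's r over the 9 log2 values, given as a description, since these libraries share 3 controls and a common step between control and knockdown. Of 14581 tested genes outside the region, 265 had r above 0.9. The 10 with the highest r were Tcstv3 (0.994), Gm2016 (0.992), Fbxo15 (0.988), BC147527 (0.988), Gm2046 (0.987), Zfp352 (0.987), Gm4027 (0.987), 5430402O13Rik (0.987), Ptpro (0.987), and AF067061 (0.987), and all 10 were called lower with both siRNAs. Tcstv3 and Zfp352 are transcripts of the 2-cell embryo. Fbxo15, an F-box gene known as an ESC marker, differed from the others in level, with mean log2 values of 7.62 in control, 6.70 in Dppa2 siRNA, and 6.50 in Dppa4 siRNA cells. In the region, r with Sp110 was 0.972 for A530040E14Rik, 0.979 for C130026I21Rik, 0.878 for Sp140, and 0.682 for A530032D15Rik. It was 0.117 for Fbxo36 and -0.915 for A630001G21Rik.

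**Figure D3:**
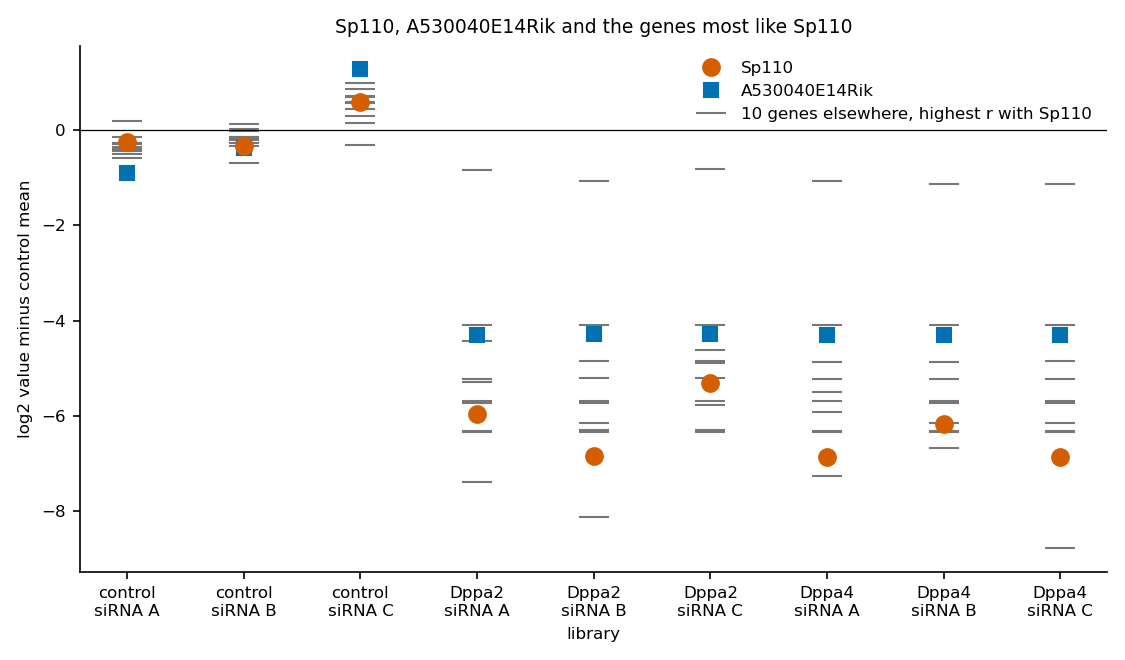
Log2 value minus the gene's control mean (y axis) in each of the 9 libraries (x axis) for Sp110, A530040E14Rik, and the 10 tested genes outside the region with the highest Pearson's r with Sp110. Sp110 and A530040E14Rik move with the 10 genes, of which Fbxo15 alone stays within 2 units of its control mean in the knockdown libraries.

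Markers of 2-cell-like cells, a rare state in ESC cultures with transcripts of the 2-cell embryo, were lower in both knockdowns, as the members were. Members and markers were chosen with earlier results of these data known, so their likeness is a description and tests nothing. Of 15 listed markers, 12 were tested, and 11 were called lower with Dppa2 siRNA and 12 with Dppa4 siRNA. Of all tested genes, 1.53% and 1.58% were called lower. Their median log2 difference was -6.34 and -6.31. Zscan4d, of a family active in telomere maintenance, fell by 6.94 with Dppa2 siRNA (SE 0.61, limma adjusted p = 0.000356) and its difference with Dppa4 siRNA was -7.38 (SE 0.61, limma adjusted p = 0.000281). The differences were -5.50 and -6.08 for Tcstv3 (SE 0.55 for both) and -5.31 and -5.66 for Zfp352 (SE 0.37 for both), in the same order of siRNAs. Tdpoz3 was the exception with Dppa2 siRNA, at a difference of -3.52. The summed level of the list was 181, 147, and 160 RPM in control libraries A, B, and C, and 0.451 to 1.36 in the knockdown libraries. The part of these cells in the fall of the cluster was not tested.

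Genes tied to the known roles of the family were counted as well. Of 39 interferon-induced genes, 28 were tested, none was called lower, and 1 was called higher with each siRNA, with medians of 0.16 and 0.01. With 1.53% and 1.58% of all tested genes called lower, a count of 0 among 28 is near the background. The gene called higher was Xaf1, an interferon-induced regulator of apoptosis, higher by 0.92 (SE 0.17, limma adjusted p = 0.0184) and 0.94 (SE 0.17, limma adjusted p = 0.0167). Among the most highly expressed of the list, Ifitm3, an antiviral membrane protein, differed by -0.27 and -0.42, and Trim25, a ubiquitin ligase of the RIG-I pathway, by -0.04 and 0.03. Psmb8, an immunoproteasome subunit named here after its values were seen, differed by -1.20 and -1.48 and was not called. The summed level of the list was 585 to 679 RPM in control, 576 to 663 in Dppa2 siRNA, and 576 to 613 in Dppa4 siRNA libraries.

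Of 17 genes of PML nuclear bodies, where Sp100 protein resides, all were tested and none was called with either siRNA (medians -0.00 and -0.02), again near the background for a list of this size. Among the most highly expressed, Trp53 differed by -0.24 and 0.16, and Usp7, a deubiquitinase, by -0.10 and -0.17. Of 4 genes with a SAND domain at other places in the genome, none was called lower, which is near the background for so few genes. Aire, the regulator of tissue antigens in the thymus, was called higher by 0.61 with Dppa2 siRNA (SE 0.12, limma adjusted p = 0.0292) and by 0.83 with Dppa4 siRNA (SE 0.12, limma adjusted p = 0.00693). Deaf1, a transcription factor, differed by 0.48 and 0.37, and Gmeb1, which binds glucocorticoid modulatory elements, by 0.00 and 0.04. Gmeb2, its paralog, differed by -0.08 and -0.05. Called higher were 0.377% of all tested genes with Dppa2 siRNA and 0.37% with Dppa4 siRNA.

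**Figure D4:**
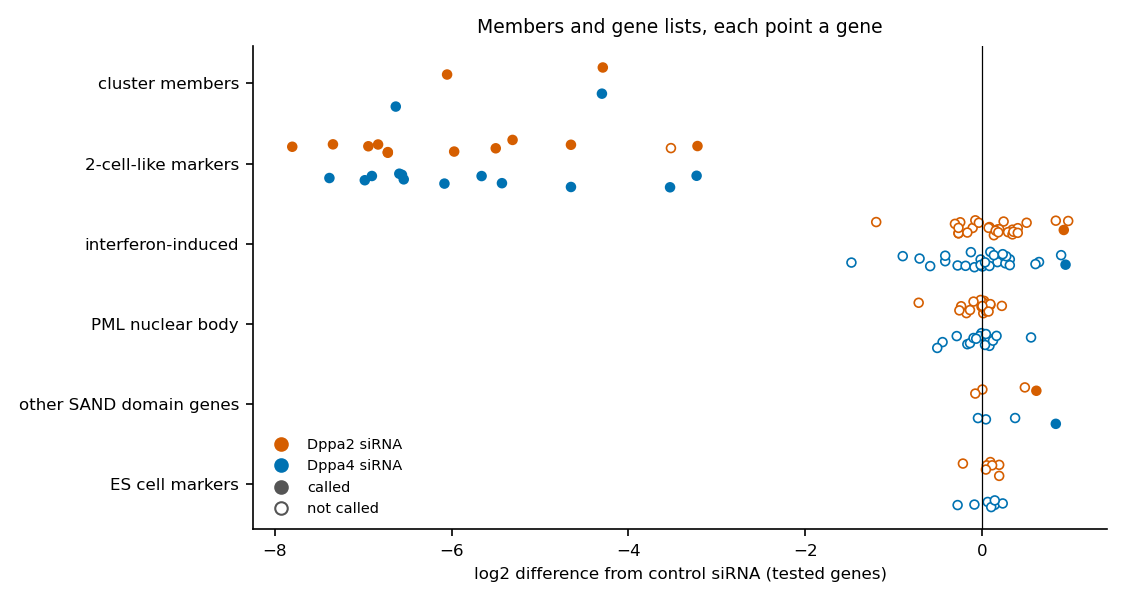
Log2 difference from control siRNA (x axis) of each tested gene of the cluster and of 5 gene lists (y axis), in orange for Dppa2 siRNA and blue for Dppa4 siRNA, with filled points for called genes. The 2 tested members, which were chosen for their fall, lie among the 2-cell-like markers, while the medians of the interferon-induced genes are 0.16 and 0.01.

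Because the family is known from immune cells, immune markers were set beside the members. The 8 blood and immune markers summed to 61.1 to 65.6 RPM in control, 63.9 to 70.3 in Dppa2 siRNA, and 71.7 to 77.3 in Dppa4 siRNA libraries, most of it from Laptm5, a lysosomal protein, at 58.7 in control cells. Cd3e, a chain of the T cell receptor complex, fell by 4.39 with Dppa2 siRNA (SE 0.67, limma adjusted p = 0.00809), and its difference with Dppa4 siRNA was -2.53 (SE 0.67, limma adjusted p = 0.0818). Itgam, an integrin of myeloid cells, was called higher with Dppa4 siRNA (1.54, SE 0.32, limma adjusted p = 0.0344). Of 6 fibroblast markers 2 were tested, and of 4 primitive endoderm markers all 4, and none of these was called with either siRNA. For so few genes this is near the background, with 1.53% and 1.58% of all tested genes called lower and 0.377% and 0.37% called higher. Gata6, a transcription factor of primitive endoderm, passed limma with Dppa4 siRNA (1.44, SE 0.24, limma adjusted p = 0.0132) but not the intensity difference filter. The endoderm markers had a median difference of 0.66 and 1.21, in the same order of siRNAs. They summed to 4.80 to 8.35 RPM in control, 5.95 to 9.63 in Dppa2 siRNA, and 11.7 to 13.0 in Dppa4 siRNA libraries. Their part in the values of the members was not tested.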

How the data were processed

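The authors trimmed reads with Trim Galore (0.4.5 in the submitters' processing notes), aligned these to GRCm38 by HISAT2 2.0.5, counted by strand on mRNA probes in SeqMonk, matched the cumulative distributions of the 9 libraries, and deposited normalized log2 values. From these, limma 3.58.1 (R 4.3.3) was fitted to the 14601 genes with log2 above -2 in at least 3 libraries, with the siRNA as the only term, an intensity trend, and Benjamini-Hochberg adjustment at 0.05. The intensity difference filter was rebuilt from the 1% of genes nearest in mean (p below 0.05). limma stood in for the authors' count test because the values are not counts. Reads were inferred from the order of distinct values, 1 read a step up to 300 reads, for 63.5% to 71.8% of genes per library; higher values and totals (16.8 to 39.6 Mreads) were estimated from a slope and are approximate, so shares of control reads carry that error besides the exact 95% interval (Clopper-Pearson). For 0 reads the floor was 3 reads over a group. Genes were placed with GENCODE vM21 by name and position, and promoter windows with RefSeq (GRCm38.p6). Python 3.11.15, pandas 2.3.3, numpy 2.4.6, scipy 1.17.1, Biopython 1.88, and matplotlib 3.10.9 were used. The fit was tested on simulated data.

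Named are all members, the other genes inside the span, the nearest tested gene on each side, any called within 1 Mb, the siRNA targets, the 10 genes most like Sp110, and of each list the called genes or, with fewer than 3 called, also the 3 of highest level. Zscan4d, Tcstv3, and Zfp352 stand for the called 2-cell-like markers. The members and the lists were chosen with earlier results of these data known. The alternatives were other filters, a pseudocount of 1, another scaling, fewer samples, no trend, no second criterion, a replicate block, and leaving out each library. Csprs was not analysed here. A gene that this rule names is not reported here.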

Additional observations from a re-analysis of the deposited data

How the results depend on the processing

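The count of 2 members called lower with each siRNA became 0 with both siRNAs when log2 above 0 in at least 3 libraries was required, since only Sp110 was then tested, and it passed limma but not the intensity difference filter. With 1 added to the linear value the count was 1 with both siRNAs, the Sp110 differences were -2.52 and -2.56, and A530040E14Rik, at -0.92 with both, was no longer called; the pseudocount compresses low values by construction. Without a filter on low values 3 members were called lower with Dppa2 siRNA (Sp140 added) and 2 with Dppa4 siRNA. In that setting 1 other gene of the region, C130026I21Rik, was called lower with each, against 0 otherwise. The share of all genes called without the filter is not given here. Leaving out each library in turn kept the counts at 2 and 2 members, 0 other genes, and 0 between the knockdowns, and gave Sp110 differences of -6.41 to -5.64 and -6.86 to -6.34. A630001G21Rik was higher with Dppa4 siRNA by limma alone (1.24), and that was lost with the replicate block (limma adjusted p = 0.113), with only the compared groups (0.0786), and without each of 6 single libraries. Deviations from the group means correlated at -0.585 to 0.367 over 9 pairs of the same letter, and at -0.658 to 0.692 over 18 pairs of different letters. The letters were therefore not taken as pairs, though 3 libraries per siRNA cannot show that pairing was absent. With the replicate block, 2 members were lower with each siRNA and 0 differed between the knockdowns. The values on RPM plus 1 read were added after seeing the data for the counts, which stayed at 2, 2, and 0. Genes with under 10 reads per library, such as A530032D15Rik, and Sp100 with none, are limited by depth.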
